A study of Rattus norvegicus with 12 samples.

Results

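The genes described here are 10 genes of serum response factor and of the actin cytoskeleton, Srf, Fhl2, Vcl, Tes, Actn1, Zyx, Myh9, Ccn2, Ccn1 and Tagln, in rat midbrain cultures that were depolarized with potassium chloride. They were selected by symbol, from results of these same data, as every probe set whose platform annotation names 1 of these symbols and no other gene. This gave 14 probe sets of 15866 tested, for 10 of the 10411 genes that have a probe set with 1 symbol. Because the measured levels led to the choice, the levels and differences of these 10 genes are a description and are given with no p-value. Counts of these genes that passed the threshold of the fit over all probe sets are part of that description and not evidence for it.

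Ventral midbrain cells of CD1 rats at embryonic day 12 were grown without serum in B27 supplement, for 6 days with the N-terminal fragment of Sonic hedgehog (50 ng/ml) and bFGF at 20 ng/ml (basic fibroblast growth factor), and then for 3 more days with B27 alone. On day 9 the cultures either received medium with 56 mM KCl for 2 h or stayed in control medium, and harvest followed this step by either 30 min or 2 h. All 4 groups are thus the same strain, age and culture with no genetic change: controls at 30 min, depolarized cultures at 30 min, controls at 2 h and depolarized cultures at 2 h, with 3 arrays each. Embryos of 4 pregnant rats were mixed into 3 lots that were kept apart, and the RNA of duplicate cultures was pooled, so p-values measure the spread between such pools. The replicates are numbered 1 to 3 at 30 min and 4 to 6 at 2 h. Whether the same lots were used at both times is not stated, so collection time cannot be told apart from a set of cultures or arrays handled together. Values are log2 signals of an Affymetrix rat array after RMA, which brings the arrays to a common scale. Each probe set is compared only with itself, since brightness differs between probe sets. Summed signals of marker lists, given below, are the exception and are carried by their brightest members.

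Serum response factor (SRF) is a transcription factor that binds the CArG box, a stretch of A and T between CC and GG. It acts with ternary complex factors of the ETS family, which are driven by MAP kinase signalling and control immediate-early genes such as Fos and Egr1. It also acts with myocardin-related transcription factors (MRTF), which are held by monomeric actin and released as actin polymerizes, and which control genes of the actin cytoskeleton and of cell adhesion. CCN genes and many adhesion genes are also targets of YAP and TAZ, which act through TEAD factors and respond to the same actin cues, and in neurons membrane depolarization reaches SRF through calcium signalling.

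The promoters of Srf, Fhl2, Ccn2 and Ccn1 are shown because their levels followed different courses and their sequences hold the motifs of these factors. The sequences are from RefSeq on the rat build GRCr8 and run 5′ to 3′ over the 250 bases before an annotated start. Srf lies on the plus strand at chr9:21923826-21924075. The Fhl2 starts lie on the minus strand at chr9:52954541-52954790 (start 1) and chr9:52923327-52923576 (start 2). In these 3 sequences capitals mark the CArG box. Ccn2 lies on the minus strand at chr1:22624615-22624864 and Ccn1 on the minus strand at chr2:237225690-237225939, where capitals mark the TEAD motif GGAATG on either strand.
Srf: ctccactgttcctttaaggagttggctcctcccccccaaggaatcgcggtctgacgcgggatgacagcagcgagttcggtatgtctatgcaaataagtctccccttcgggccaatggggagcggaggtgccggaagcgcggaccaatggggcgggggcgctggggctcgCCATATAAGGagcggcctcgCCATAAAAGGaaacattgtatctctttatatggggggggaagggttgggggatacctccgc
Fhl2 start 1: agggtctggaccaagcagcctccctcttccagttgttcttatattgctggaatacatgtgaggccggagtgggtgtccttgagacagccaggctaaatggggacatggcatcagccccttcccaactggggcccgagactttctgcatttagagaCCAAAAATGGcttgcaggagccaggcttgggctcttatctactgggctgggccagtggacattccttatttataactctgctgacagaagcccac
Fhl2 start 2: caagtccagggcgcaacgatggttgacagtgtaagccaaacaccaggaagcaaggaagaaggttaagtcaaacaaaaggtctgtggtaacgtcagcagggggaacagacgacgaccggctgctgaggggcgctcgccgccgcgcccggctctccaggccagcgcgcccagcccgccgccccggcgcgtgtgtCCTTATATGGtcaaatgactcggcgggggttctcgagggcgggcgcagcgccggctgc
Ccn2: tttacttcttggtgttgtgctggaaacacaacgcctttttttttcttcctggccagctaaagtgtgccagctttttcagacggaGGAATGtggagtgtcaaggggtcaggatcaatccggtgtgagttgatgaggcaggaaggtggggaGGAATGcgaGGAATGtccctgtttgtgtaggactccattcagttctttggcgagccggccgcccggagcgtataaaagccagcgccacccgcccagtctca
Ccn1: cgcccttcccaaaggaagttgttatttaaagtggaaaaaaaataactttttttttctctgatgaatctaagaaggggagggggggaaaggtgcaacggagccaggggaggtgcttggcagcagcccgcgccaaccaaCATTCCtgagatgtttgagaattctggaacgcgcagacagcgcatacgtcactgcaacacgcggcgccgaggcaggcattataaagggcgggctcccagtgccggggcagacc

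Promoter windows from 250 bases before to 50 bases after the start were found for 9 of the 10 genes (not Tagln), 12 windows in all. Each motif was searched on both strands. The CArG box was present in 3 of the 12 windows, those of Srf and both Fhl2 starts, and in 1.64% of 33469 rat promoters. Srf held 2 copies and each Fhl2 start held 1. The TEAD motif GGAATG was present in 5 windows of 5 genes (Ccn2 with 3 copies, Ccn1, Vcl, Zyx start 1 and Fhl2 start 1) and in 14.2% of all promoters. The cAMP response motif TGACG was found in Srf, Fhl2 start 2, Actn1 and Ccn1, against 21.2% of all promoters. The ETS core CCGGAA was found in Srf and Zyx start 1 (15% of all promoters), and the AP-1 motif TGANTCA in Myh9 start 2 alone (7.33%). A match describes the letters of a window and no more. Some of these motifs can share letters, as CCGGAA and GGAATG can, but no matches in the 12 windows overlapped each other.

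**Figure D1:**
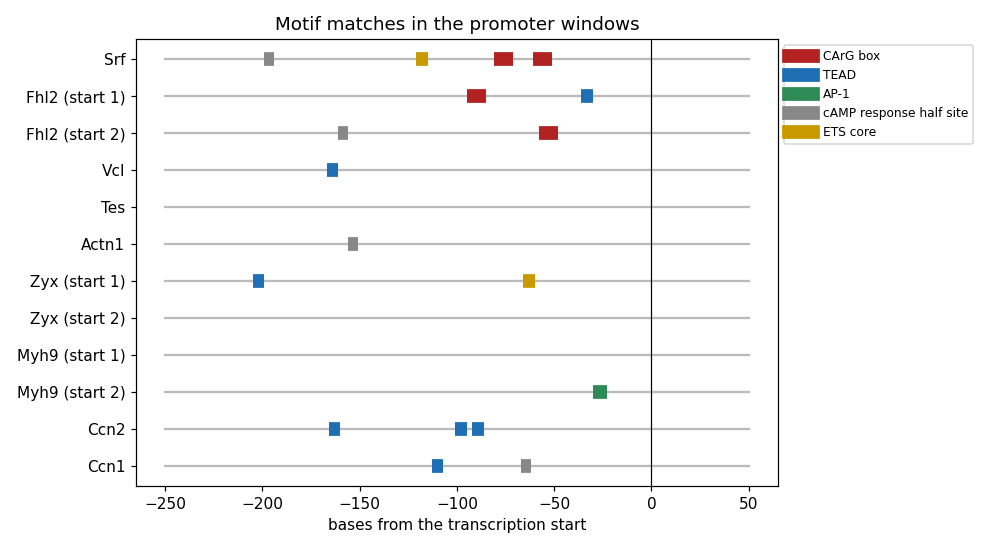
Motif matches in the 12 promoter windows of 9 of the genes, plotted by distance from the annotated start in bases (x axis, from 250 before to 50 after), 1 line per window and 1 colour per motif. CArG boxes appear only on the lines of Srf and Fhl2, and Ccn2 carries 3 TEAD motifs.

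Over the whole table, limma with Benjamini-Hochberg adjustment called 24% of 15866 probe sets at 30 min (10.8% higher, 13.1% lower) and 25.2% at 2 h (9.51% higher, 15.7% lower) at an adjusted p under 0.05. With each array centred on its median, the split at 30 min became 2339 higher and 1631 lower, against 1720 and 2085 as deposited, and at 2 h it became 2014 and 1903, against 1509 and 2492. The controls of both times differed from each other at 35.3% of probe sets. Among the depolarized arrays at 2 h, replicate 5 was the lowest of 3 at 12 of the 14 probe sets described here, so values without it are given where they move. These are bulk samples, in which fewer cells of a type and less RNA per cell cannot be told apart.

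Srf, the transcription factor itself, was higher after depolarization at both times. Its brighter probe set (1388842_at) read 9.91, 9.82 and 9.86 in the 30 min controls and 10.66, 10.67 and 10.62 in the depolarized arrays. At 2 h it read 9.63, 9.62 and 9.48 in the controls and 10.33, 10.09 and 10.22 in the depolarized arrays. Every depolarized array lay above every control of its time, and also above every control of the other time. The difference was 0.79 ± 0.07 (SE, n = 3 against 3) at 30 min, 1.73-fold, and 0.64 ± 0.07 at 2 h, 1.56-fold. The dimmer probe set of Srf (1374829_at) did not follow, with differences of 0.12 ± 0.09 at both times and overlapping groups at each. The 2 probe sets correlated at r = 0.53 over the 12 arrays, so the increase rests on the brighter of them.

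Fhl2 and Vcl took opposite directions at the 2 times. Fhl2 encodes a LIM-domain protein that travels between adhesions and the nucleus, is itself an MRTF target and can bind SRF. Its brighter probe set (1371951_at) read 9.10, 9.04 and 8.89 in the 30 min controls and 8.53, 8.53 and 8.52 in the depolarized arrays. At 2 h it read 8.93, 8.96 and 8.87 in the controls and 10.21, 10.09 and 10.05 after depolarization. The depolarized arrays lay below all controls at 30 min and above all controls at 2 h, while the controls of both times overlapped. The difference was -0.48 ± 0.07 at 30 min and 1.20 ± 0.07 at 2 h, that is 1.40-fold lower and then 2.29-fold higher. A further Fhl2 probe set (1369313_at) gave -0.56 ± 0.13 and 1.13 ± 0.13, with r = 0.95 between both. At this probe set the 2 h controls lay wholly below the 30 min controls, by -0.25 ± 0.13.

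Vcl encodes vinculin, which links talin and the cadherin complex to actin filaments. At its brighter probe set (1372905_at) the 30 min controls read 10.50, 10.63 and 10.60 and the depolarized arrays 10.16, 10.09 and 10.13. The 2 h controls read 10.05, 10.15 and 10.11 and the depolarized arrays 10.98, 10.57 and 10.68. As with Fhl2, the groups did not overlap at either time and changed sides between them. The difference was -0.45 ± 0.09 at 30 min and 0.64 ± 0.09 at 2 h, and at the other probe set (1375538_at) it was -0.50 ± 0.07 and 1.0 ± 0.07. The 2 h controls of vinculin were lower than the 30 min controls, by -0.47 ± 0.09 at the brighter probe set and -0.27 ± 0.07 at the other. Because of that, the depolarized 2 h arrays overlapped the 30 min controls at 1372905_at, while at 1375538_at they lay above them.

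**Figure D2:**
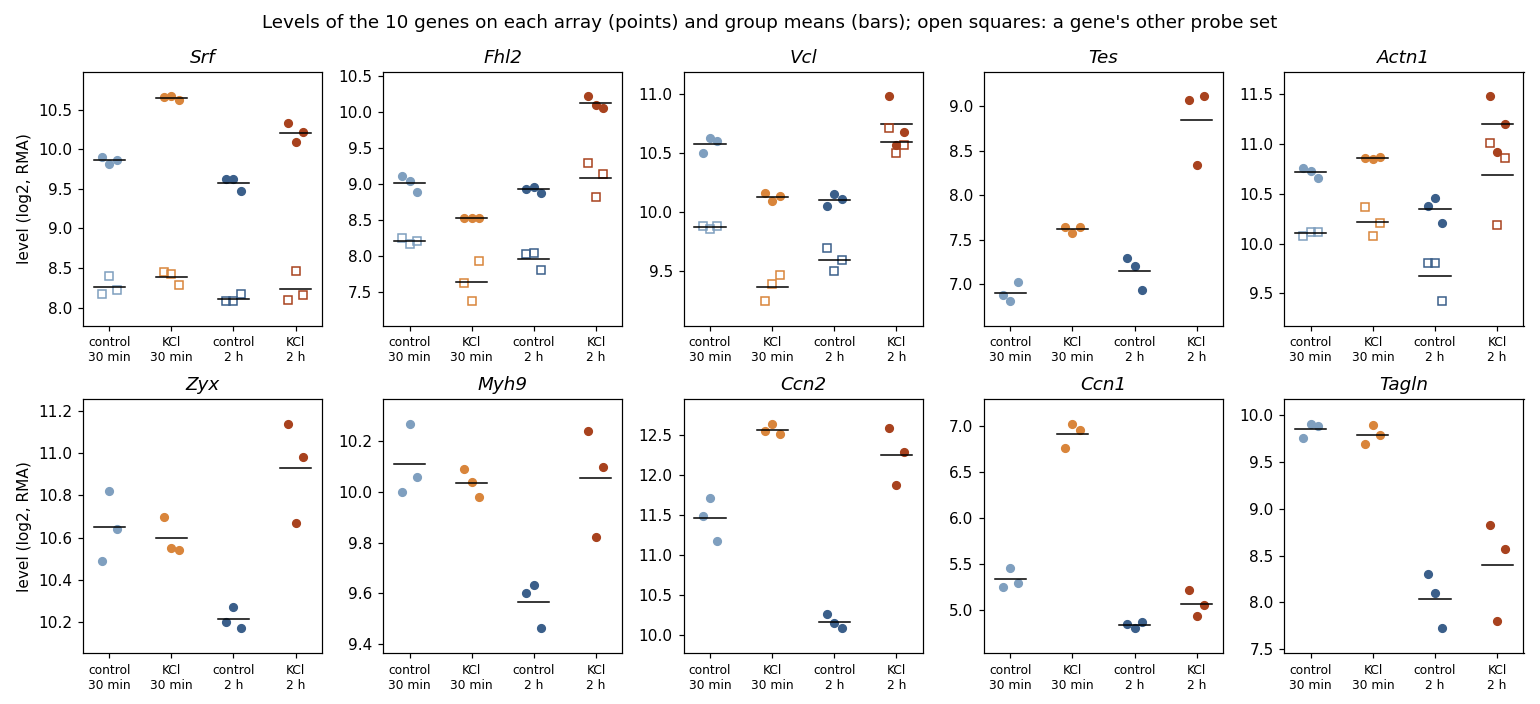
RMA log2 signal (y axis) of each array for the 14 probe sets of the 10 genes, in the 4 groups of 3 arrays, with bars at the group means. Fhl2 and Vcl lie below their controls at 30 min and above them at 2 h, and Tagln is lower in both groups at 2 h.

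Tes, Actn1, Zyx and Myh9, which encode proteins of adhesions and stress fibres, were all higher after depolarization at 2 h. Tes (testin, a LIM protein that binds zyxin and actin regulators) showed the largest difference of these 4 genes. Its arrays (1389409_at) read 6.88, 6.81 and 7.03 in the 30 min controls and 7.64, 7.58 and 7.64 after depolarization. At 2 h they read 7.30, 7.20 and 6.94 in the controls and 9.07, 8.34 and 9.11 after depolarization. The groups were separate at both times, and the controls of both times overlapped. The difference was 0.72 ± 0.15 at 30 min, 1.64-fold, and 1.69 ± 0.15 at 2 h, 3.24-fold, or 1.94 without depolarized replicate 5.

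Actn1 encodes alpha-actinin-1, which crosslinks actin filaments and anchors them at adhesions. At its brighter probe set (1389189_at) the 30 min controls read 10.76, 10.73 and 10.66 and the depolarized arrays 10.86, 10.85 and 10.87. The 2 h controls read 10.38, 10.46 and 10.21 and the depolarized arrays 11.48, 10.92 and 11.20. The depolarized arrays lay above their controls at both times, but at 30 min by only 0.14 ± 0.11, against 0.85 ± 0.11 at 2 h. The other probe set (1398294_at, r = 0.97 with this one) gave 0.11 ± 0.16, with overlapping groups, and 1.01 ± 0.16. Without depolarized replicate 5 the 2 h differences were 0.99 and 1.26.

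Zyx encodes zyxin, a LIM protein of focal adhesions that is recruited to strained actin fibres. Its probe set (1388130_at) read 10.49, 10.82 and 10.64 in the 30 min controls and 10.70, 10.55 and 10.54 in the depolarized arrays, an overlap with a difference of -0.05 ± 0.10. At 2 h the controls read 10.20, 10.27 and 10.17 and the depolarized arrays 11.14, 10.67 and 10.98. The 2 h groups were separate by 0.71 ± 0.10, 1.64-fold.

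Myh9 encodes the heavy chain of non-muscle myosin IIA, the motor that contracts stress fibres. It read (1371725_at) 10.00, 10.27 and 10.06 in the 30 min controls and 10.09, 10.04 and 9.98 after depolarization, an overlap with a difference of -0.07 ± 0.10. The 2 h controls read 9.60, 9.63 and 9.46 and the depolarized arrays 10.24, 9.82 and 10.10, a difference of 0.49 ± 0.10 (1.40-fold). The depolarized 2 h arrays overlapped both groups at 30 min, with a difference of 0.02 ± 0.10 from the depolarized ones, and the 2 h controls lay below all other arrays. The platform's gene identifier for this probe set had no match in the current RefSeq gene table, so its symbol is as the platform gives it. A further probe set that lists Myh9 under 2 identifiers was left out by the rule.

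Ccn2 and Ccn1 encode secreted matricellular proteins of the CCN family, known as connective tissue growth factor and CYR61, and both are textbook targets of SRF with MRTF and of YAP with TEAD. Ccn2 (1367631_at) read 11.49, 11.71 and 11.17 in the 30 min controls and 12.55, 12.64 and 12.51 in the depolarized arrays. At 2 h it read 10.26, 10.15 and 10.08 in the controls and 12.58, 11.87 and 12.28 in the depolarized arrays. Its depolarized arrays lay above every control of either time. The difference was 1.11 ± 0.15 at 30 min, 2.16-fold, and 2.08 ± 0.15 at 2 h, 4.23-fold, the largest of the 10 genes at that time. The depolarized level was no higher at 2 h than at 30 min, with a difference of -0.32 ± 0.15, while the controls were lower at 2 h by -1.29 ± 0.15, 2.45-fold. The larger 2 h difference of Ccn2 thus went with lower controls and not with higher depolarized arrays.

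Ccn1 had its response at 30 min. It read (1368290_at) 5.25, 5.46 and 5.29 in the 30 min controls and 6.76, 7.02 and 6.95 after depolarization, a difference of 1.58 ± 0.09 (2.99-fold) and the largest of the 10 genes at that time. At 2 h the controls read 4.85, 4.80 and 4.87 and the depolarized arrays 5.22, 4.94 and 5.05. These 2 h groups were still separate, but by 0.23 ± 0.09 (1.17-fold), and the depolarized 2 h arrays lay below the 30 min controls. The 2 h values are close to the lowest value of the whole table, 4.41. Ccn1 and Ccn2, with their TEAD motifs shown above, therefore had different courses: the depolarized difference between times was -1.84 ± 0.09 for Ccn1 and -0.32 ± 0.15 for Ccn2.

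Tagln encodes transgelin (SM22), an actin-binding protein of smooth muscle and fibroblasts and a classic CArG-driven gene. Its 30 min controls (1367570_at) read 9.76, 9.91 and 9.88 and the depolarized arrays 9.69, 9.90 and 9.79. The 2 h controls read 8.30, 8.10 and 7.72 and the depolarized arrays 8.83, 7.80 and 8.57. The groups overlapped at both times, with differences of -0.05 ± 0.19 and 0.36 ± 0.19. The 2 h value was set by single arrays: it was 0.66 without depolarized replicate 5, 0.14 without depolarized replicate 4 and 0.20 without control replicate 6. By collection time Tagln did differ. Every 2 h array lay below every 30 min array, as was also true of Ccn1. The Tagln controls were lower at 2 h by -1.81 ± 0.19 (3.50-fold), the largest control difference of the 10 genes.

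**Figure D3:**
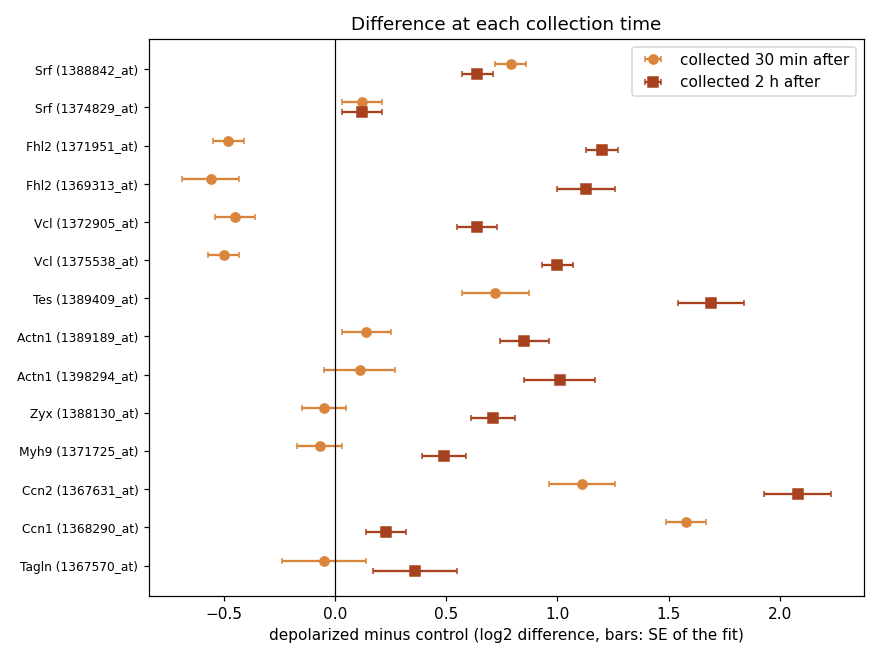
Depolarized minus control difference (log2, with SE) of the 14 probe sets at 30 min and at 2 h. At 30 min the probe sets spread to both sides of 0, from -0.56 for Fhl2 to 1.58 for Ccn1, and at 2 h all lie above 0.

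Counted at 1 probe set per gene, that with the higher mean, 4 of the 10 genes passed the limma threshold as higher at 30 min (Srf, Tes, Ccn2 and Ccn1) and 2 as lower (Fhl2 and Vcl), beside 10.8% and 13.1% of all probe sets. At 2 h all 10 differences were above 0 and 8 passed as higher, beside 9.51% of all probe sets. The other two were Ccn1 and Tagln, and all 10 passed without depolarized replicate 5. The 2 h difference exceeded the 30 min difference past the threshold in 7 genes and was below it in 1, Ccn1, beside 6.16% and 6.79% of all probe sets (13% in either direction). Without regard to a test, the depolarized arrays lay wholly above their controls in 5 of 10 genes and wholly below in 2 at 30 min, beside 17.9% and 18.9% of all probe sets. At 2 h they lay wholly above in 9, beside 15.4%, and wholly below in none, beside 22.1%, and Tagln overlapped. Nothing is read from these counts, because the same contrasts served to choose the genes. The median difference over the 10 genes was 0.05 at 30 min (range -0.48 to 1.58) and 0.68 at 2 h (range 0.23 to 2.08), where all probe sets had medians of 0.01 and 0.

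The level of the controls differed between collection times for most of the genes. At the brighter probe set of each gene, the 3 controls at 2 h lay below the 3 controls at 30 min in 8 of 10 genes. In Fhl2 and Tes they overlapped. Of all probe sets, the 2 h controls lay wholly below at 27.5% and wholly above at 22.1%. At the other Fhl2 probe set (1369313_at) they lay wholly below, by -0.25 ± 0.13, which was not called. The limma fit called 8 of 10 lower, beside 17.2% of all probe sets (18.1% were higher), and 7 without control replicate 6. Tes alone had a difference above 0. Their median control difference was -0.45 (range -1.81 to 0.24), against -0.04 for all probe sets. Measured against the 30 min controls, the depolarized 2 h arrays were wholly above in 5 genes (Srf, Fhl2, Tes, Actn1 and Ccn2), overlapped in 3 (Vcl, Zyx and Myh9) and were wholly below in 2 (Ccn1 and Tagln), beside 21.7% wholly above and 28.1% wholly below of all probe sets. Between the depolarized groups, limma called 5 of the 10 genes higher at 2 h (Fhl2, Vcl, Tes, Actn1 and Zyx) and 3 lower (Srf, Ccn1 and Tagln), beside 19.2% and 21.8% of all probe sets (41% in either direction). Those arrays lay wholly above in 4 genes and wholly below in 3, beside 21.6% and 28.3%. For Vcl (1372905_at), Zyx and Myh9, the depolarized 2 h arrays were thus separate from the same-time controls and overlapped those of 30 min. Their means were 10.75, 10.93 and 10.05 in the depolarized 2 h arrays and 10.57, 10.65 and 10.11 in the 30 min controls. At the other Vcl probe set (1375538_at) the depolarized 2 h arrays lay wholly above the 30 min controls. This contrast was not tested.

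**Figure D4:**
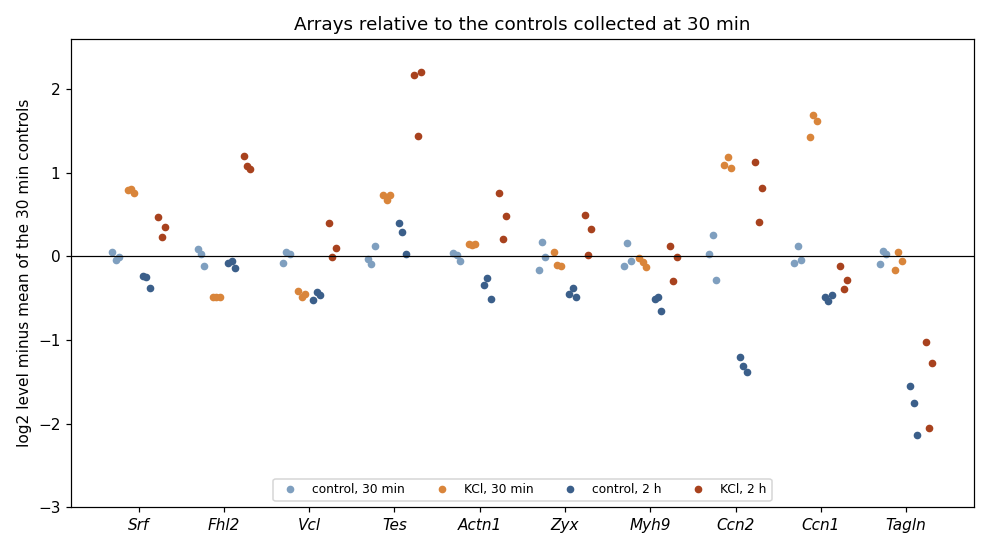
Log2 level of each array minus the mean of the 30 min controls (the line at 0), for the brighter probe set of each gene, coloured by group. The 2 h controls of Tagln and Ccn2 lie farthest below 0, and all depolarized 2 h arrays of Fhl2 and Tes lie above it.

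Markers of the cell types that such cultures can hold also differed between the control groups and, in part, with depolarization. The neuronal list (7 of 8 markers measured) was called higher in the 2 h controls by limma at all 7, beside 18.1% of all probe sets. Its median difference was 0.91, and its summed linear signal was 11408 to 13138 at 30 min and 25483 to 25951 at 2 h. Oligodendrocyte lineage markers (4 of 6 measured) went the other way, from a sum of 6078 to 7474 down to 2251 to 2696. Among them Olig1 differed most between the controls, by -2.45 ± 0.15, beside -0.18, -0.27 and -0.22 for Pdgfra, Sox10 and Mbp. Astrocyte and radial glial markers (8 of 8) summed to 22687 to 23256 at 30 min and 18530 to 20508 at 2 h. By limma 4 of the 8 were lower in the 2 h controls and 1 was higher, beside 17.2% and 18.1% of all probe sets. The higher one was Aldh1l1 (0.30 ± 0.10), and Fabp7, the brightest, was among the lower ones (-0.43 ± 0.08). Dopaminergic markers (6 of 8) summed to 1008 to 1146 and 1972 to 2204, and Th, tyrosine hydroxylase, had group means between 7.53 and 7.96. Some of these sums also moved with depolarization. Oligodendrocyte lineage markers were lower in the depolarized arrays, at 4676 to 5924 at 30 min and 1874 to 2044 at 2 h, with no overlap with the controls, and Pdgfra fell by 0.58 ± 0.09 and 0.75 ± 0.09 (limma, adjusted p = 0.000207 and 3.34e-05). It was the 1 marker of the 4 called at either time, beside 13.1% and 15.7% of all probe sets called lower. Dopaminergic markers were higher in the depolarized arrays at 30 min, with a sum of 1348 to 1491. Nr4a2 was the 1 of 6 called higher there (0.87 ± 0.08, limma, adjusted p = 1.13e-06), beside 10.8% of all probe sets. At 2 h their sum overlapped the controls, at 1839 to 2360, but 2 of 6 were called higher, beside 9.51% of all probe sets. These were Nr4a2 (0.26 ± 0.08) and Slc18a2 (0.31 ± 0.10, limma, adjusted p = 0.0281 and 0.0349). Neuronal markers summed to 12674 to 13593 and 22899 to 25625 in the depolarized arrays, overlapping the controls at both times. By limma 1 of 7 rose at 30 min and 2 at 2 h, beside 10.8% and 9.51% of all probe sets. Astrocyte and radial glial markers overlapped as well, at 21809 to 23141 and 19002 to 20100, with none called at an adjusted or unadjusted p under 0.05 by limma. The part of these markers in the differences of the 10 genes, between controls or with depolarization, was not tested. The deposited values carry no detection calls, so no marker can be called absent.

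Smooth muscle, mural cell and fibroblast markers bear on Tagln, Ccn2 and Myh9, which such cells express strongly. Of 17 markers 15 were measured, and their summed signal overlapped in all 4 groups: 24423 to 26645 and 20410 to 26346 in controls and depolarized arrays at 30 min, 24765 to 25970 and 24891 to 26466 at 2 h. By limma none passed as higher (2 at an unadjusted p under 0.05) and 1 as lower at 30 min, and 1 passed each way at 2 h. Of all probe sets, 10.8% passed as higher and 13.1% as lower at 30 min, and 9.51% and 15.7% at 2 h. Acta2, smooth muscle actin, had means of 9.13, 8.98, 8.88 and 9.09 in the same order. The sum is carried by bright probe sets such as Col3a1, with group means of 12.83 to 13.01, and says little about dimmer markers such as Acta2. In the comparison of controls 1 marker was higher and 4 lower, beside 18.1% and 17.2% of all probe sets. The median of the markers was -0.08, beside -1.81 for Tagln. Endothelial and microglial markers had summed signals of at most 425 and 1225.

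Outside the 10 genes, the levels most like that of Srf over the 12 arrays, by Pearson correlation, were those of Egr1 (r = 0.995), an SRF-driven zinc-finger factor, Etf1 (0.990), a translation release factor, Herpud1 (0.987), Irs2 (0.987) and Ier2 (0.985). Egr1 differed by 3.52 at 30 min and 2.59 at 2 h, and like Srf it was higher after depolarization at both times. Most like the average course of the 10 genes, each scaled to equal spread, were Tubb6 (r = 0.984), a beta-tubulin, Timp1 (0.982), an inhibitor of matrix metalloproteases, Cdc42ep1 (0.981), Ajuba (0.975), a LIM protein of adhesions, and Pawr (0.975). Their 2 h differences were 1.17, 1.48, 0.89, 1.02 and 1.06, and all 5 had lower controls at 2 h, by -0.71, -0.74, -0.63, -0.55 and -0.54. These correlations describe 12 arrays in 4 groups and carry no p-value. The genes were picked by them over the same arrays, so their like differences follow from the pick.

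Other SRF and MRTF targets of the cytoskeleton were mostly without a call at 30 min and in part higher at 2 h. Of 47 listed genes 39 were measured. By limma 3 rose and 2 fell at 30 min, beside 10.8% and 13.1% of all probe sets. Their median difference was 0.04, beside 0.01 for all probe sets. The 2 that fell became 1 without any 1 of the 30 min arrays, and without control replicate 4 or depolarized replicate 6. At 2 h 14 of 39 rose, beside 9.51% of all probe sets, and 18 did so at an unadjusted p under 0.05, with a median of 0.17 beside 0 for all probe sets. None fell at 2 h, also at an unadjusted p under 0.05, and 1 did without control replicate 6 or depolarized replicate 5. In the controls 19 of 39 were lower at 2 h, beside 17.2% of all probe sets, with a median of -0.25. Fhl3, a paralog of Fhl2, rose by 0.83 ± 0.12 at 30 min (limma, adjusted p = 6.56e-05) and 0.77 ± 0.12 at 2 h (adjusted p = 0.000217), beside -0.48 and 1.20 for Fhl2 itself. Tgfb1i1 (Hic-5, a LIM protein of adhesions) fell by 0.43 ± 0.08 at 30 min (limma, adjusted p = 0.000642) and rose by 0.51 ± 0.08 at 2 h (adjusted p = 0.000224), the same order of directions as Fhl2 and Vcl. Its 2 responses differed by 0.94 ± 0.11 (limma, adjusted p = 4.57e-05). Vasp, an actin regulator that binds zyxin and vinculin, rose at both times, by 0.52 ± 0.10 and 0.86 ± 0.10 (limma, adjusted p = 0.000676 and 1.39e-05). Tagln2, transgelin-2, rose at 2 h by 0.68 ± 0.08 (limma, adjusted p = 1.49e-05), and its control levels differed by -0.02 ± 0.08, beside -1.81 ± 0.19 for Tagln. Cnn2, calponin-2, rose by 0.56 ± 0.07 at 2 h (limma, adjusted p = 3.46e-05). Its controls were lower at 2 h by -0.51 ± 0.07, and its depolarized arrays differed between times by -0.05 ± 0.07.

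Immediate-early targets of SRF and ternary complex factors mostly rose at both times and more at 30 min. Of 16 measured genes, 15 rose at 30 min (median 2.09) and 14 at 2 h (median 1.19) by limma, beside 10.8% and 9.51% of all probe sets. None fell at either time, also at an unadjusted p under 0.05. The 2 h response was smaller than the 30 min response past the threshold in 9 and larger in 2, beside 6.79% and 6.16% of all probe sets. Klf6, a zinc-finger factor, rose by 2.40 ± 0.11 and 0.79 ± 0.11 (limma, adjusted p = 1.06e-09 and 0.000124). Fos rose by 4.06 ± 0.08 and 3.39 ± 0.08 (limma, adjusted p = 2.02e-14 and 3.32e-13). Dusp1, a MAP kinase phosphatase, rose by 1.91 ± 0.07 and then 0.32 ± 0.07 (limma, adjusted p = 9.51e-11 and 0.00375). Fosb was 1 of the 2 with a larger 2 h response, 3.14 ± 0.12 after 1.77 ± 0.12 (limma, adjusted p of the difference = 6.72e-05).

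YAP and TEAD pathway genes and targets other than the CCN genes (19 measured) rose in 4 cases and fell in 2 at 30 min by limma. The shares of all probe sets were 10.8% and 13.1%. At 2 h 7 rose and 1 fell, beside 9.51% and 15.7% of all probe sets. The medians were 0.06 and 0.09. The 2 that fell at 30 min became 1 without control replicate 2 or depolarized replicate 2 or 3. The 1 that fell at 2 h became 2 without control replicate 3 or 6 or depolarized replicate 1 or 4. Their controls were lower at 2 h in 14 of 19, beside 17.2% of all probe sets. The median was -0.34, beside -0.45 for the 10 genes. Ajuba rose at 2 h by 1.02 ± 0.15 (limma, adjusted p = 0.000172) and Igfbp3 by 1.33 ± 0.15 (adjusted p = 1.39e-05). The controls of Igfbp3 were lower at 2 h than at 30 min by -1.68 ± 0.15, and its depolarized arrays by -0.67 ± 0.15. F3, tissue factor, rose by 0.90 ± 0.10 at 30 min and 0.59 ± 0.10 at 2 h (limma, adjusted p = 4.44e-06 and 0.00038). Amotl1, an angiomotin that binds YAP, fell by 0.41 ± 0.08 at 30 min (limma, adjusted p = 0.00144). Lats2, a kinase that inhibits YAP, rose by 0.66 ± 0.13 at both times (limma, adjusted p = 0.00138 and 0.00154). Stk3, the kinase MST2 upstream of it, fell by 0.86 ± 0.10 at 2 h (limma, adjusted p = 1.47e-05).

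Of 35 other measured genes of focal adhesions and actin crosslinking, limma called 4 higher and 5 lower at 30 min. That is near the shares of all probe sets, 10.8% and 13.1%. At 2 h 11 rose and 2 fell, beside 9.51% and 15.7% of all probe sets. The medians were 0.00 and 0.11. The 11 became 7 without depolarized replicate 4, and the 2 became 1 without control replicate 4 or 5 or depolarized replicate 5 or 6. Cav1, caveolin-1, rose by 0.91 ± 0.08 at 2 h (limma, adjusted p = 2.83e-06). Tns3, a tensin that links integrins to actin fell by 0.67 ± 0.07 at 30 min (limma, adjusted p = 2.2e-06) and differed by 0.09 ± 0.07 at 2 h. Msn, moesin, which ties actin to the membrane, rose by 0.59 ± 0.07 at 2 h (limma, adjusted p = 3.14e-05). Its controls were lower at 2 h by -0.44 ± 0.07, and its depolarized arrays differed between times by 0.04 ± 0.07. At 30 min Bcar1, the adaptor p130Cas, rose by 0.40 ± 0.07 and Zfyve21 fell by 0.49 ± 0.08 (limma, adjusted p = 0.000455 and 0.000263). Svil, supervillin, fell at both times, by 0.34 ± 0.08 and 1.0 ± 0.08 (limma, adjusted p = 0.00291 and 3.19e-07). Their controls were lower at 2 h in 20 of 35, beside 17.2% of all probe sets, and in 11 of 35 without control replicate 4.

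Paralogs of the 10 genes, some of which are also in the lists above, were compared within each family. Of 16 measured, 2 rose and none fell at 30 min by limma, beside 10.8% and 13.1% of all probe sets. At 2 h 5 rose and 1 fell, beside 9.51% and 15.7%. Trip6, a LIM protein of the zyxin family, rose at both times, by 0.59 ± 0.11 and 0.67 ± 0.11 (limma, adjusted p = 0.000516 and 0.000257), beside -0.05 and 0.71 for Zyx. Fhl3, named above, was the other paralog that rose at 30 min. At 2 h Fhl3, Trip6, Tagln2 and the MADS-box relatives of SRF, Mef2c (0.55 ± 0.11) and Mef2d (0.32 ± 0.10) rose (limma, adjusted p = 0.00181 and 0.0271 for Mef2c and Mef2d). For alpha-actinin, Actn2, Actn3 and Actn4 differed by 0.20, 0.14 and 0.06 at 2 h, none past the limma threshold (adjusted p = 0.113, 0.19 and 0.642), beside 0.85 for Actn1. Myh10, non-muscle myosin IIB, differed by -0.08 and -0.06 (limma, adjusted p = 0.476 and 0.614), beside 0.49 for Myh9 at 2 h. Ccn3 differed by -0.04 and 0.09, and its controls were higher at 2 h by 0.78, opposite to Ccn2 and Ccn1. Tagln3, a neuronal transgelin, fell by 0.34 at 2 h (limma, adjusted p = 0.00958), a call lost without control replicate 4, and was higher in the 2 h controls by 0.79, beside -1.81 for Tagln. The differences between relatives were not tested.

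**Figure D5:**
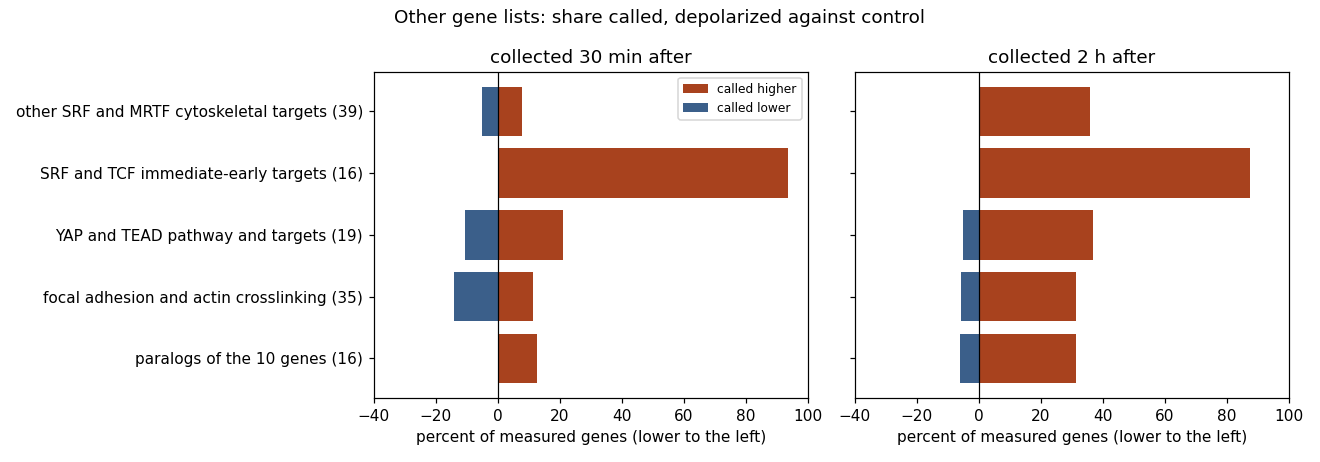
Share of the measured genes of 5 other lists (percent, number measured in brackets) that limma called higher (right of 0) or lower (left of 0) in depolarized against control cultures, at 30 min and at 2 h. Immediate-early targets have the longest bars, 15 and 14 of 16 genes, and the other cytoskeletal targets go from 3 of 39 higher to 14 of 39. Of all probe sets, 10.8% were called higher at 30 min and 9.51% at 2 h.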

How the data were processed

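Expression was measured on 12 Affymetrix rat arrays, 3 per group. The authors deposited RMA log2 values, per the submitters' processing notes; the RMA software and version are not given in the sources used here. The table holds no detection calls or scanner intensities, and its 12 columns were matched to samples by their names. Of 15923 probe sets 57 array controls were left out. The platform annotation gave 12783 of the others 1 gene symbol, 312 several and 2771 none. Symbols were updated through RefSeq (GRCr8).

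The log2 values were fitted with limma 3.58.1 in R 4.3.3, as a means model of the 4 groups with eBayes (8 residual degrees of freedom, two-sided, Benjamini-Hochberg over 15866 probe sets, threshold 0.05), and tested on simulated data first. Differences are depolarized minus control or 2 h minus 30 min. A gene with several probe sets counts once, at the brightest on average. The 10 genes, the lists, the markers and the tests were chosen with earlier results of these data known. From each list the genes past the threshold with the smallest p were named, at most 3 per collection time, with paralogs and the 5 best-correlated genes. The results of 1 further gene list are not reported here. The number of arrays limits the precision. Alternatives were a fit of only the arrays of each comparison, quantile normalization, centring on medians, array weights, no probe sets of the dimmest 25% or 50%, a trended and robust prior, the ordinary equal-variance test, a replicate block and leaving out each array. Whether replicate numbers pair the samples was checked by correlating deviations from the group means: same-numbered arrays gave -0.32, 0.23 and 0.05 at 30 min and 0.24, -0.11 and -0.24 at 2 h, so they were not treated as pairs.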

Additional observations from a re-analysis of the deposited data

Results flagged for a closer look

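For 3 genes every depolarized array lay below the mean control at 30 min and above it at 2 h. Of these, Myh9 had overlapping groups at 30 min, with a difference of -0.07 ± 0.10 that was not called. The gap between both responses was 1.68 and 1.69 for the probe sets of Fhl2 (1371951_at and 1369313_at), 1.09 and 1.5 for those of Vcl (1372905_at and 1375538_at) and 0.56 for Myh9. The limma fit passes its threshold for this gap at all 5 probe sets, but that is no independent test, because the genes were selected on the same contrasts, so the gap is given as a description.

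Among the genes of the other lists, the response at 2 h differed from that at 30 min by a test of the difference (limma interaction, adjusted p under 0.05). The 2 h response minus the 30 min response was above 0 for the cytoskeletal targets Tgfb1i1 (0.94), Tagln2 (0.55) and Cnn2 (0.46) and for Fosb (1.37). It was also above 0 for the YAP targets Igfbp3 (1.01) and Ajuba (0.83) and the adhesion genes Cav1 (0.85), Tns3 (0.76) and Msn (0.48). Tgfb1i1 and Tns3 fell at 30 min, and Tns3 was not called at 2 h (-0.67 and then 0.09). The value was below 0 for the immediate-early genes Dusp1 (-1.59), Klf6 (-1.61), Egr1 (-0.93) and Fos (-0.67), with smaller rises at 2 h. For Bcar1 (-0.33) it was below 0 as well, with a rise at 30 min (0.40) and no call at 2 h (0.06). Stk3 (-0.64) and Svil (-0.65) were also below 0. Svil fell at both times and more at 2 h, while Stk3 was not called at 30 min (-0.22) and fell at 2 h (-0.86). The causes were not tested.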

How the results depend on the processing

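Of 1431 recomputed differences of the 10 genes, none changed sign after a call and 3 moved by more than 1 SD between replicates: the control difference of Vcl (1372905_at) was -0.57 and that of Srf (1388842_at) -0.38 after quantile normalization, and the 30 min difference of Srf was 0.84 after median centring. The probe sets with a difference between both responses numbered 1369 by the ordinary equal-variance test, against 2055. Without the dimmest 50%, fewer probe sets were tested: 4269 differed between depolarized groups, against 6507, and 2 of the 10 genes passed as higher at 30 min, against 4. The immediate-early targets that rose were then 8 at each time, against 15 and 14. By the ordinary test 13 focal adhesion genes were lower in the 2 h controls, against 20, and 2 paralogs, against 6. With array weights 5 of the other cytoskeletal targets rose at 30 min, against 3, and the cause was not tested. Leaving out 1 array gave 3135 to 3846 probe sets at 30 min (3805 in full), 2833 to 4226 at 2 h, 1624 to 2081 for the difference between responses, 4298 to 5928 between controls and 5561 to 6619 between depolarized groups. Of the 10 genes, 4 were then higher and 2 lower at 30 min throughout, 8 to 10 higher at 2 h and 7 to 8 lower in the 2 h controls, and of the other cytoskeletal targets 3 to 4 rose at 30 min and 11 to 16 at 2 h. The correlations of same-numbered arrays gave no sign that replicate numbers pair the samples, which 3 arrays a group cannot exclude. With the replicate block 3524, 3617 and 1816 probe sets were called at 30 min, at 2 h and for the difference between responses, 9 of the 10 genes passed as higher at 2 h, and 3 and 14 of the other cytoskeletal targets rose. A random block (correlation -0.04) gave 5607 between controls and 6510 between depolarized groups. With 3 arrays a group and no detection calls, small differences of dim probe sets such as Ccn1 at 2 h are the least certain.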

Other observations

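Genes whose promoter holds a CArG box were counted after the data had been seen, as a description. Of 8631 measured genes with a promoter window 133 held one. At 30 min 14 of them were called higher and 26 lower by limma, and at 2 h 17 and 19. The shares over all 8631 genes were 11.1% higher and 15.6% lower at 30 min and 9.56% and 18.9% at 2 h. Of the immediate-early targets 4 of 12 with a window held the box (Egr1, Egr2, Klf6 and Zfp36), and all 4 were called higher at both times. Of the other cytoskeletal targets 4 of 35 held it (Acta1, Actg1, Cnn2 and Fhl1), and of these Cnn2 was called higher, at 2 h.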
